A study of Mus musculus with 7 samples.

Results

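Potassium channel genes encode the pore-forming, modifying and auxiliary subunits of the channels that let potassium out of a cell. Here they were every autosomal protein-coding mouse gene in RefSeq's GRCm38 annotation whose symbol starts with Kcn, with Kcnq1 left out. The rule took 91 of 20665 autosomal protein-coding genes, and 569 of the 133337 regions enriched for 5-methylcytosine in the series overlapped one of them or the 1 kb on either side. Genes were taken by symbol, but the family was chosen with earlier results of these data known.

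Potassium channels set a neuron's resting potential, shape and end its action potentials and limit its firing rate. In hippocampal neurons the voltage-gated (Kv) channels carry the delayed rectifier, A-type and M currents, calcium-activated channels follow spikes, and inward rectifiers (Kir) and leak (K2P) channels hold the membrane near rest. Methylated cytosine in mammals lies mostly in CG dinucleotides, is usual within gene bodies and is typically scarce at promoters rich in CG. Raised extracellular potassium depolarises neurons and is a common way to imitate strong activity in culture.

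The series used hippocampal neurons of C57BL/6J mouse embryos taken at E18.5, grown for 11 days in vitro in medium that carried the mitotic inhibitor AraC at its changes. The groups were 3 untreated libraries and 3 libraries from cells given 55 mM KCl for 4 h, and both shared strain, age and culture. Methylated DNA was pulled down with an antibody and sequenced (MeDIP-seq) by a service company, and 1 pooled input library was not analysed here. The question the design text poses is which loci are targets of activity at the level of DNA methylation. Whether the 3 libraries of a group stem from separate cultures is not stated, so p-values reflect the spread among these 6 libraries only, and that spread may be technical. The tracks hold DNA enrichment and no expression, so the neuronal label could not be checked against the level of marker genes.

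Each library's file lists called intervals with a summit height, a whole number of at least 6 whose scaling is not given in the sources used here. The libraries held between 34834 and 93470 intervals; KCl replicate 3 had the fewest, and the untreated libraries had 72947 to 87302. A region is a stretch merged from overlapping intervals of the libraries, and 20.5% of all regions were called in all 6. A bulk culture cannot tell a smaller share of cells with methylation from less methylation per cell.

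Enriched regions rarely reached gene starts, in potassium channel genes as in all genes. Promoter windows of 300 bases, from 250 before to 50 after a start, were found in RefSeq for 68 of the 91 genes and numbered 93. Some of the 93 overlapped each other. Only 1 window (1.08%) touched a region, against 611 of 20085 windows (3.04%) of all autosomal protein-coding genes. That window belonged to Kcnk7, which encodes a K2P subunit. None touched a region called in all 6 libraries, against 232 (1.16%) of all windows. Regions called in all 6 libraries lay within 1 kb of a start in 4 other genes: Kcne4, Kcnip2, Kcnk18 and Kcnd2. The share of all genes with such a region was not counted, so this number has no background beside it.

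The 250 bases before the start of 5 genes show what lay beside these regions. They come from RefSeq (GRCm38.p6), run 5′ to 3′ on the gene's strand, and carry each CG in capitals. Kcnk7 is shown as the window covered by a region, Kcnk18 and Kcne4 as sparse windows with a region close by, Kcnd2 as a denser window with a region past its start, and Kcnc1 as a CG-rich window far from its nearest region.
Kcnk7: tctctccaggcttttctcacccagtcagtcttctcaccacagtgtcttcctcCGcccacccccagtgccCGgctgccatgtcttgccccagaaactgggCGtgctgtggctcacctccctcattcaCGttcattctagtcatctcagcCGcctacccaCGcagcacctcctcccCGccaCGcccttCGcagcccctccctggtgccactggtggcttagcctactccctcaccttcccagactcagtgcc
Kcnk18: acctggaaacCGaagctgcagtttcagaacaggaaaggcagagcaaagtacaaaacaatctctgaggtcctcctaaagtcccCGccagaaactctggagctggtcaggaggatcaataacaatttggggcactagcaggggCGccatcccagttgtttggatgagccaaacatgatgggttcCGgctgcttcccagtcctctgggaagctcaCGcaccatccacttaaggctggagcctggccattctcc
Kcne4: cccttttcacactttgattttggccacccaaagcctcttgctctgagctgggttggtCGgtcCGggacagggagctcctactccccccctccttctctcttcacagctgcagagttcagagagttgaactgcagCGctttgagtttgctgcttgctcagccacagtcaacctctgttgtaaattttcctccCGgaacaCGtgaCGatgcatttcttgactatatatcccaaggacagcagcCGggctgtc
Kcnd2: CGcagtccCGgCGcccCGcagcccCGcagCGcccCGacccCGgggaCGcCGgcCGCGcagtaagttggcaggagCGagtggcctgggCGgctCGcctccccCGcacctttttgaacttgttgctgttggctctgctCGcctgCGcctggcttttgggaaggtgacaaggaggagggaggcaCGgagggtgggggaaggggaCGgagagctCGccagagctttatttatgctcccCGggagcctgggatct
Kcnc1: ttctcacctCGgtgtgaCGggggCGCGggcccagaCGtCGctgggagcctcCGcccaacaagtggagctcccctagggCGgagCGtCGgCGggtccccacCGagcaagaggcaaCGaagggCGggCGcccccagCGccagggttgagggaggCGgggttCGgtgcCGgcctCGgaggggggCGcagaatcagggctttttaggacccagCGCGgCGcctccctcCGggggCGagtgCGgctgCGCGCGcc
The Kcnk7 stretch (chr19:5704221-5704470, plus strand) held 9 CG and lay wholly inside the region chr19:5704097-5704573. That region had heights of 16, 22 and 12 in the untreated libraries and 19 and 17 in KCl replicates 1 and 2, and was not called in KCl replicate 3. The Kcnk18 stretch (chr19:59219398-59219647, plus strand) held 5 CG and began 11 bases past the end of a region. This neighbouring region, chr19:59218909-59219387, lay upstream of the gene for a leak channel of sensory neurons, and its heights were 21, 17 and 20 in untreated and 26, 16 and 11 in KCl libraries.

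The Kcne4 stretch (chr1:78816661-78816910, plus strand) held 7 CG, and its nearest region, chr1:78817733-78818297, began 822 bases into the gene for this small single-pass auxiliary subunit. Its heights were 26, 18 and 23 in untreated and 24, 19 and 15 in KCl libraries. Kcnd2, the pore subunit of the dendritic A-type current, had 22 CG before its start (chr6:21215096-21215345, plus strand). Its region chr6:21216317-21217338 began 971 bases after the start, with heights of 21, 24 and 14 in untreated and 17, 19 and 12 in KCl libraries. Around all 3 starts the KCl heights overlapped the untreated ones.

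Kcnc1, a pore subunit of fast-spiking interneurons, held 30 CG in the stretch chr7:46396218-46396467 on the plus strand, the most of the 5 shown. Its nearest region began 10361 bases past the end of that stretch. Over the whole windows, potassium channel genes held a median of 9 CG and all autosomal protein-coding genes 14. At least 1 CG (searched as CG on both strands, which is its own reverse complement) was found in 92 of the 93 windows (98.9%) and in 95.6% of all windows. In all genes, windows with 5 to 9 CG touched a region most often (7.90%) and windows with 20 or more least often (0.926%). Among potassium channel windows, 27 fell in each of these 2 bins and none of them touched a region.

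Away from the starts the genes were widely marked. At least 1 region lay in 81 of the 91 genes (89%), against 66.8% of all autosomal protein-coding genes. A region called in all 6 libraries lay in 56 (61.5%), against 36.2% of all. These shares were not matched for length: the median gene spanned 32.9 kb in the family and 17.5 kb over all genes. Over all genes, the share with a region rose from 33.9% in windows under 10 kb to 100% in windows of 300 kb or more. All 6 libraries shared 121 of the 569 regions (21.3%), and 147 (25.8%) came from a single library. By place, 553 overlapped a gene body and 16 lay only in the flanking 1 kb. A single region was shared by Kcnip1 and Kcnmb1, which overlap on chromosome 11, and 7 also overlapped a protein-coding gene outside the family.

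Density was counted as regions per 100 kb of gene body plus 1 kb on each side. The summed windows of the 91 genes held 5.41 regions per 100 kb and those of all autosomal protein-coding genes 6.91, a ratio of 0.784. Counted per library, intervals gave a ratio of 0.790 ± 0.0358 (SD, n = 3) in untreated and 0.746 ± 0.0570 (SD, n = 3) in KCl libraries. The median gene pointed the other way: it held 8.91 regions per 100 kb in the family and 5.23 over all genes, and 59 of the 91 exceeded that general median.

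Length divided the family. The 68 genes with windows under 100 kb held 12.5 regions per 100 kb, against 8.24 in all genes of that size, a ratio of 1.51 that ran from 1.41 to 1.68 over the 6 libraries. The 23 genes with longer windows held 3.74, against 5.93, a ratio of 0.630 that ran from 0.526 to 0.663. No library put the short genes below or the long genes above the general density. Of the short genes 51 exceeded the general median gene of their size, and of the long genes 8 did. A region that only touches a window is counted, which raises densities in short windows for every gene alike. The limit of 100 kb was chosen after the densities were seen.

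Finer length bins showed where the contrast lay. In windows of 300 kb or more, 14 potassium channel genes held 3.05 regions per 100 kb against 4.82 in all such genes, and only Kcnh1, Kcnip1 and Kcnmb2 exceeded the general median gene of 3.92. In windows of 100 to 300 kb, 9 genes held 6.40 against 7.08 when pooled, but 6 of the 9 exceeded the general median gene of 5.91. In windows of 10 to 30 kb, 26 genes held 13.9 against 9.32, and 20 exceeded the general median of 7.39. Below 10 kb, 9 of 15 genes had a region (60%), against 33.9% of all genes of that size.

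**Figure D1:**
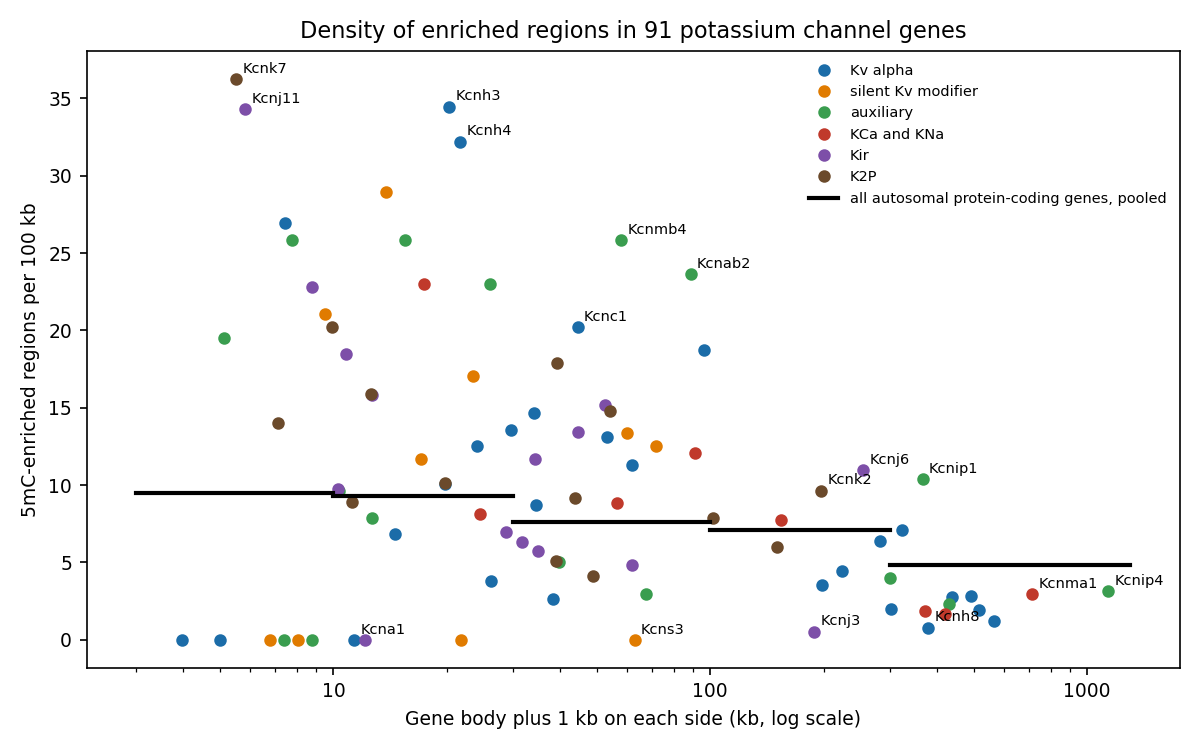
Each point is 1 of the 91 genes, coloured by channel class, with its window length in kb (log axis) and its regions per 100 kb; black lines give the pooled density of all autosomal protein-coding genes in 5 length bins. Points above 25 regions per 100 kb belong to windows under 100 kb, and most points beyond 300 kb lie below the line.

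Channel classes also differed. The Kv alpha subunits, which form voltage-gated pores, held 187 regions in 28 genes and 4.38 per 100 kb, a ratio of 0.634 to all genes. The calcium- and sodium-activated (KCa and KNa) pores held 69 in 8 genes and 3.73 per 100 kb, a ratio of 0.541. Auxiliary subunits held 150 in 16 genes and 5.85 per 100 kb, a ratio of 0.847. These 3 classes lay below the general density, and each holds several genes longer than 300 kb.

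The other 3 classes lay above it. Silent modifiers, which make no pore alone and join the Kv alpha subunits, held 29 regions in 10 genes and 9.82 per 100 kb, a ratio of 1.42. Kir genes held 65 in 15 genes and 8.20 per 100 kb, a ratio of 1.19. K2P genes held 69 in 14 genes and 9.32 per 100 kb, a ratio of 1.35, and every K2P gene had a region. The modifier ratio came from 6 genes, since the other 4 had no region, and it moved to 1.13 when flanks of 5 kb replaced those of 1 kb. Counting only regions called in all 6 libraries raised the modifier ratio to 2.18, on 10 regions in 5 genes. The same count lowered the auxiliary ratio to 0.548.

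Per library, the ratio for Kv alpha genes was 0.678 ± 0.0134 in untreated and 0.638 ± 0.0482 in KCl libraries (SD, n = 3 each). For KCa and KNa genes it was 0.523 ± 0.0494 and 0.490 ± 0.0454, and for auxiliary genes 0.791 ± 0.0547 and 0.693 ± 0.122. It was 1.70 ± 0.0579 and 1.60 ± 0.137 for modifiers, and 1.41 ± 0.0353 and 1.37 ± 0.196 for K2P genes. Kir genes gave 1.10 ± 0.167 and 1.19 ± 0.0860. In every class the KCl values overlapped the untreated values. In the Kir class alone the ratio crossed 1, in untreated replicate 2 (0.906).

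**Figure D2:**
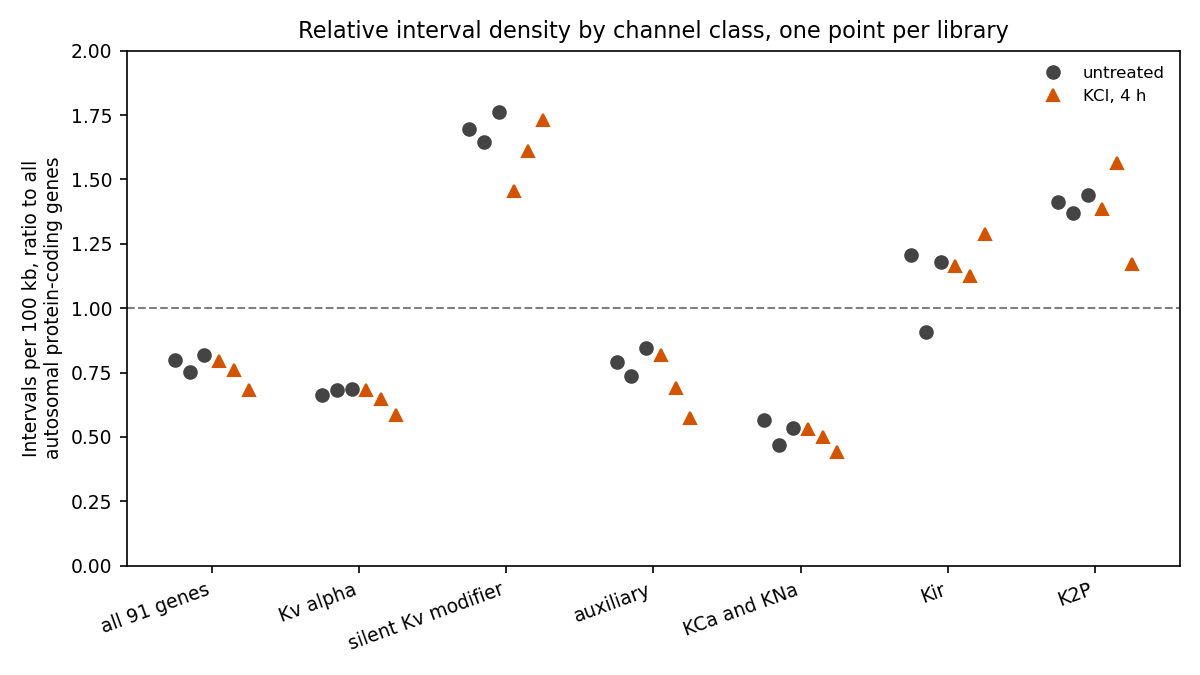
Intervals per 100 kb of each class divided by those of all autosomal protein-coding genes in the same library, with 1 point per library (circles untreated, triangles KCl for 4 h). The Kv alpha, auxiliary and KCa and KNa points all lie below 1, the modifier and K2P points all above it, and in each class the triangles and circles overlap.

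Among short genes the order of the classes changed. Kv alpha genes with windows under 100 kb numbered 18 and held 14.1 regions per 100 kb, and the 10 longer ones held 2.95. The corresponding auxiliary genes held 15.8 in 12 short and 4.30 in 4 long genes. KCa and KNa genes held 11.6 in 4 short and 2.83 in 4 long genes. Short modifiers held 9.82, short Kir genes 10.3 and short K2P genes 11.3, all below the short Kv alpha and auxiliary genes. All 6 classes exceeded the general 8.24 in short genes, and the long Kv alpha, auxiliary and KCa and KNa genes fell under the general 5.93. The 3 long K2P genes held 8.01 and the 2 long Kir genes 6.55, both above it.

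Within the Kv alpha class the Shaker-type Kcna genes ranged from no region to dense marking. Kcna1, a pore subunit of axons, had no region in its 11.3 kb window, and neither had Kcna3 or Kcna5. Kcna2, its usual partner in axons, had 1 region, called in untreated replicate 1 and KCl replicate 1 at heights of 12 and 18. Kcna7 ran the other way, with 2 regions in 7.42 kb (26.9 per 100 kb), and Kcna10 and Kcna4 had 1 region each (6.86 and 2.62 per 100 kb). On chromosome 6, Kcna6 differed from its neighbours Kcna1 and Kcna5. It had 3 regions, including chr6:126713504-126713949, the third highest region of the family, with heights of 121, 142 and 90 in untreated and 137, 121 and 81 in KCl libraries.

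Length and density differed between other Kv alpha genes too. Kcnb2, a delayed rectifier pore, had 12 regions in 439 kb (2.73 per 100 kb), with 7, 7 and 9 intervals in untreated and 9, 6 and 2 in KCl cells. Kcnc1 had 9 regions in 44.5 kb (20.2 per 100 kb), of which 5 were called in all 6 libraries. Its paralogue Kcnc2 had 7 in 198 kb (3.53 per 100 kb).

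Genes of the M and A-type currents were long. Kcnq3, an M-channel pore subunit, had 6 regions in 302 kb (1.98 per 100 kb), and Kcnq5 had 7 in 566 kb (1.24 per 100 kb). Of the A-type genes, Kcnd2 had 10 in 516 kb (1.94 per 100 kb) and Kcnd3 had 10 in 224 kb (4.46 per 100 kb).

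The ether-à-go-go family (Kcnh) spanned a wide range. Kcnh3 and Kcnh4, both of the Elk branch, had 7 regions each and 34.5 and 32.2 per 100 kb in windows of 20.3 and 21.7 kb. Kcnh8, the third Elk gene, had 3 in 378 kb (0.793 per 100 kb). Intervals per library in Kcnh8 were 1, 3 and 1 in untreated and 1, 2 and 1 in KCl cells, and in Kcnh4 they were 7, 4 and 4 and then 5, 4 and 3. Kcnh1, the Eag channel, had 23 regions, the most of the Kv alpha class, and the family's second highest region. That region, chr1:192251590-192252215, had heights of 125, 154 and 112 in untreated and 125, 119 and 79 in KCl libraries, which overlapped.

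Of the silent modifiers, Kcng2 had 9 regions and Kcng3 had 8, and Kcng4 was the densest, with 4 in 13.8 kb (28.9 per 100 kb). Kcnf1, Kcns2, Kcns3 and Kcnv1 had none in any library. Kcns3 was the longest member without a region, with a window of 63.0 kb (chr12:11090202-11151168 plus flanks), where 88% of all genes with windows of 30 to 100 kb had one. The 100 kb on each side of Kcns3 held 6.5 regions per 100 kb.

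Among auxiliary subunits, the genes for the calcium-binding KChIP proteins, which assemble with A-type pores, held the most regions. Kcnip1 had 38 in 366 kb (10.4 per 100 kb) and Kcnip4 had 36 in 1138 kb (3.16 per 100 kb), while Kcnip3 had 2 in 67.6 kb. Intervals in Kcnip1 numbered 28, 24 and 24 in untreated and 25, 16 and 8 in KCl libraries. Kcnip4 also held the highest region of the family, chr5:48776414-48777080, at heights of 142, 173 and 109 in untreated and 182, 138 and 97 in KCl libraries.

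The beta subunits of Kv channels contrasted with each other. Kcnab2 had 21 regions in 88.8 kb (23.6 per 100 kb), Kcnab1 had 10 in 431 kb (2.32 per 100 kb), and Kcnab3 had none. The highest Kcnab2 region, chr4:152458401-152459921, was 1521 bases long, with heights of 82, 98 and 72 in untreated and 101, 71 and 57 in KCl libraries. Kcnmb4, the neuronal beta subunit of the large-conductance (BK) channel, had 15 regions in 58.0 kb (25.9 per 100 kb), the highest density of the auxiliary genes with 3 or more regions. Intervals in Kcnmb4 numbered 6, 11 and 6 in untreated and 7, 6 and 4 in KCl libraries.

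Kcnma1, the BK pore, had 21 regions in 715 kb (2.94 per 100 kb), 7 of them called in all 6 libraries. The small-conductance (SK) gene Kcnn3 had 12 in 154 kb (7.78 per 100 kb), and Kcnn2, the SK gene best known from hippocampal dendrites, had 7 in 419 kb (1.67 per 100 kb). Kcnn4, the intermediate-conductance gene of blood and epithelial cells, was the densest of the class (23.0 per 100 kb), but its 4 regions rested on 3 intervals in untreated replicate 1 and 2 in KCl replicate 1.

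The genes of the G-protein-gated Kir channel contrasted with each other. Kcnj3 had 1 region in 188 kb (0.531 per 100 kb), called at a height of 12 in KCl replicate 1 alone. Kcnj6, whose product forms channels with that of Kcnj3 in hippocampal neurons, had 28 in 255 kb (11.0 per 100 kb). Its intervals numbered 18, 15 and 16 in untreated and 18, 14 and 7 in KCl libraries, so the order of the pair held in all 6.

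Other Kir genes ran from no region, in Kcnj13, upwards. Kcnj11, the pore of the ATP-sensitive channel, had 2 regions in 5.83 kb (34.3 per 100 kb), both called in all 6 libraries. Kcnj12 had 8 in 52.7 kb (15.2 per 100 kb), the densest of the class with 3 or more regions. Kcnj10, the main Kir gene of astrocytes, had 2 in 34.9 kb (5.73 per 100 kb). Kcnj4 held the fifth highest region of the family, chr15:79484855-79486070, at heights of 95, 111 and 85 in untreated and 111, 88 and 70 in KCl libraries.

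In the K2P class Kcnk2, a leak channel opened by stretch and lipids, had 19 regions in 197 kb (9.65 per 100 kb). Kcnk10, its close relative, had 9 in 151 kb (5.97 per 100 kb). Kcnk3, an acid-sensitive leak channel, had 7 in 39.1 kb (17.9 per 100 kb). Of the Kcnk2 regions 6 were called in all 6 libraries, and the highest, chr1:189249868-189250475, had heights of 99, 122 and 92 in untreated and 120, 100 and 65 in KCl libraries. It was the fourth highest of the family. Across the family, the regions called in all 6 libraries had a median height of 24.7, and those in all autosomal protein-coding genes 24.5.

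A gene's own density went with that of the DNA beside it. With regions counted by midpoint, the density in a gene's window and in the 100 kb on each side gave a Spearman rho of 0.60 over the 91 genes, and 0.45 over all 20665 genes. Genes are not independent replicates, neighbours share flanks, and both densities come from the same libraries, so these are descriptions. The window was denser than its sides in 56 of the 91 (61.5%), against 42.4% of all genes. For windows under 100 kb the shares were 64.7% and 41.6%, and for longer windows they were closer, 52.2% and 48.3%. Kcnh4 had 32.2 inside and 13.5 outside, and Kcnj6 had 11.0 inside and 4.5 outside. Kcnab2 ran the other way, with 23.6 inside and 26.5 outside, and Kcnj3 had 0.531 inside and 1.5 outside.

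**Figure D3:**
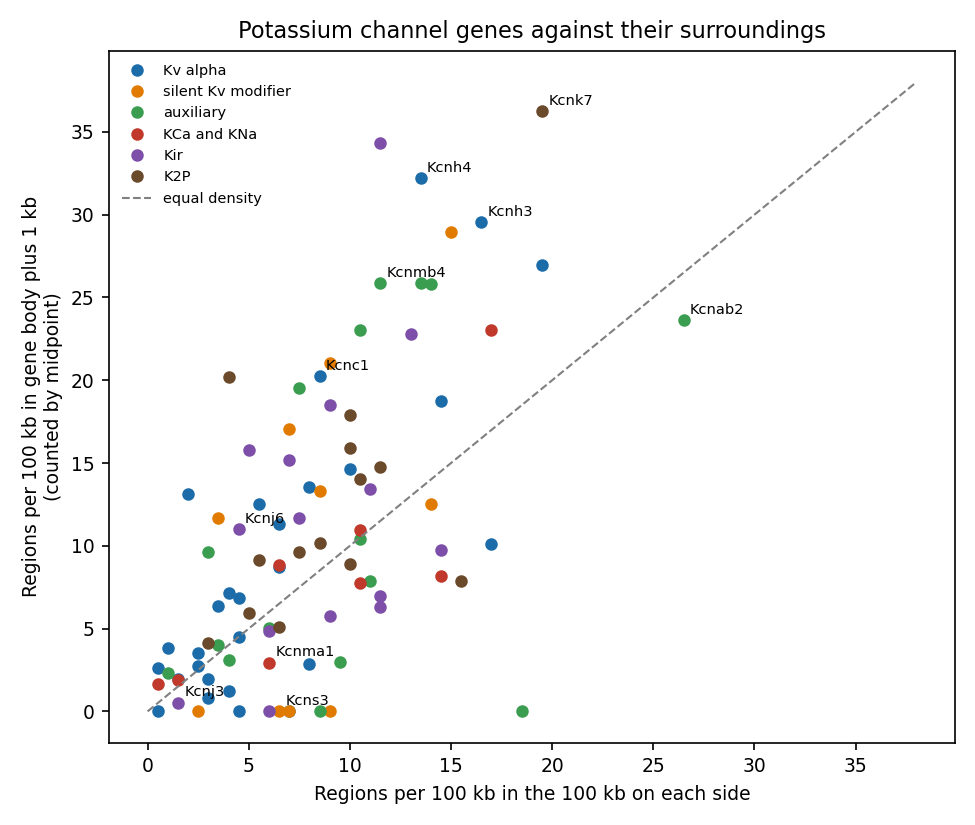
Regions per 100 kb inside each gene's window against those in the 100 kb on each side, both counted by midpoint, for the 91 genes coloured by class. Of these, 56 lie above the dashed line of equal density, Kcnab2 lies below it at 26.5 outside, and Kcnj3 lies near the origin.

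Within genes of at least 20 kb, regions were more frequent towards the end. The last 20% of the gene held 25.3% of the 411 body regions in 44 potassium channel genes and 24.8% in all such genes. The first 20% held 17.3% and 17.6%. Exons and introns were not assigned.

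KCl exposure gave no height change past the threshold in any potassium channel region. Heights were compared with limma on log2(height + 1) over the 20537 regions called in all 6 libraries that passed a filter on mean height, of which 102 lay in these genes. With a Benjamini-Hochberg adjusted p threshold of 0.05, limma called 0 of the 102 in either direction, against 0% of all regions tested, with 0.932 as the lowest adjusted value. Without KCl replicate 1 that lowest value was 0.145, with 0 calls, and over the other settings it ran from 0.850 to 1.00. Unadjusted, limma's p fell under 0.05 for 0 higher (0% of all) and 1 lower (1.12% of all). After the median of each library was subtracted, it did so for 1 higher (1.97% of all) and 1 lower (1.67% of all), both in Kcnip4.

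Deposited heights were on average lower with KCl over the whole data set, with a median log2 change of -0.25. Of all tested regions, 90.6% lay below 0. In all autosomal protein-coding genes, regions called in all 6 libraries had mean heights of 31.4, 35.8 and 27.8 in untreated libraries. The KCl libraries gave 35.4, 27.4 and 19.5, so the groups overlapped, and replicate 3, with the fewest intervals, was lowest. Changes are therefore given relative to the median log2 change of all tested regions. On this scale 59 of the 102 lay above 0 and 43 below, and their median was 0.04. By class, 21 of 34 Kv alpha regions, 6 of 9 modifier regions, 10 of 18 auxiliary regions, 9 of 12 Kir regions and 8 of 15 K2P regions lay above 0. For KCa and KNa genes it was 5 of 14, with a median of -0.15. In all autosomal protein-coding genes 5914 tested regions lay above and 5960 below.

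**Figure D4:**
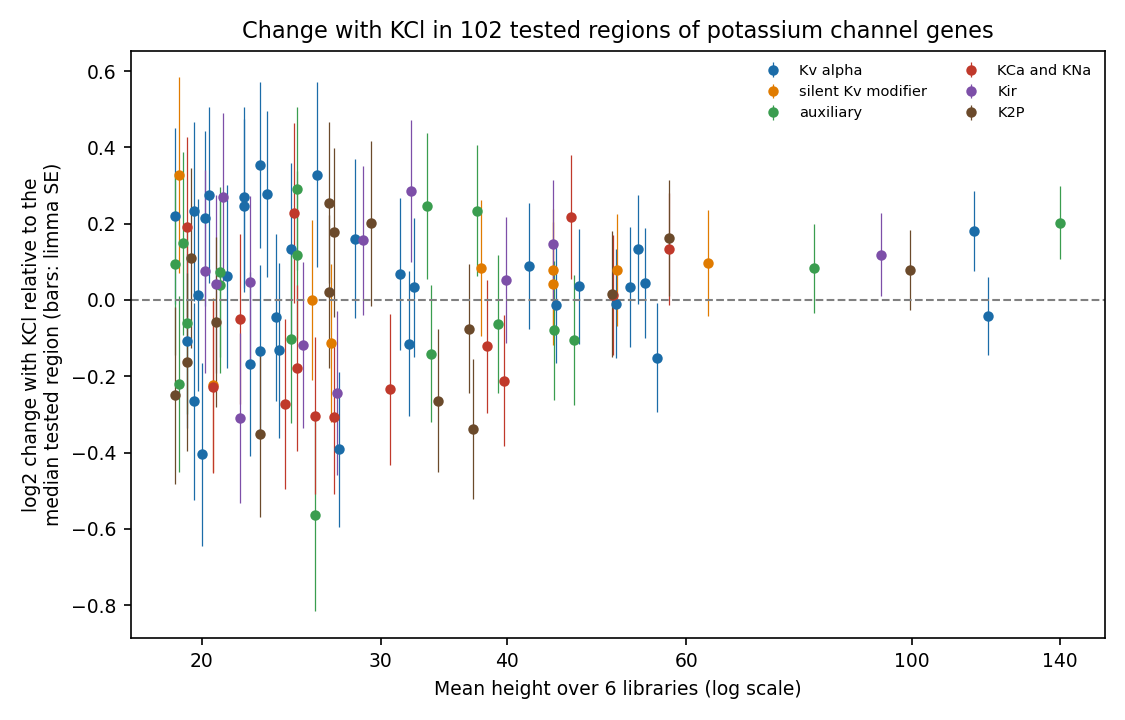
log2 change of height with KCl relative to the median tested region (bars: limma standard error) against mean height over the 6 libraries (log axis) for the 102 tested regions, coloured by class. Points scatter on both sides of 0, 59 above and 43 below, and the lowest is a Kcnip4 region at -0.56.

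The lower region with the smallest p lay in Kcnip4 (chr5:48504342-48504748). Its heights were 25, 35 and 33 in untreated and 40, 11 and 11 in KCl libraries, so KCl replicate 1 was the highest of all 6 and the groups overlapped. As deposited, its log2 change was -0.81 (SE 0.36, limma unadjusted p = 0.0238, adjusted p = 0.932). Relative to the median region it was -0.56 (SE 0.25, limma unadjusted p = 0.0338 and adjusted p = 1.00 in the centred fit), and it ran from -0.94 without KCl replicate 1 to -0.25 without KCl replicate 2. The highest region of the family, also in Kcnip4, gave 0.20 (SE 0.10) on the same scale, and its heights overlapped between groups.

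Regions in Kcna7, Kcnk16 and Kcnk12 also had low p among those lower with KCl, with relative log2 changes of -0.41, -0.35 and -0.34. The Kcna7 change was -0.24 without KCl replicate 2, and the Kcnk12 change was -0.14 without KCl replicate 3. The Kcnk16 region (chr14:20263063-20263539), in the gene for a leak channel known from the pancreas, had heights of 29, 31 and 23 in untreated and 22, 17 and 15 in KCl libraries, so every KCl value was lower. The Kcnk12 region (chr17:87785536-87786275) had 40, 49 and 40 and then 46, 32 and 15. Its groups overlapped.

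As deposited, 10 of the 102 regions were higher with KCl, against 1062 of 11875 tested regions in all autosomal protein-coding genes. Of the 10, those ranked first by limma p had unadjusted p of 0.822 to 0.916. They included regions in Kcng2, Kcnh3, Kcnip2 and Kcnj6, with relative changes of 0.33, 0.33, 0.29 and 0.29. Leaving out 1 library took Kcng2 to 0.12 (untreated replicate 3), Kcnh3 to -0.01 (untreated replicate 1), Kcnip2 to 0.10 (KCl replicate 2) and Kcnj6 to 0.14 (untreated replicate 1). The Kcnj6 region (chr16:94828194-94828748) had heights of 25, 41 and 29 in untreated and 42, 32 and 24 in KCl libraries. The Kcnip2 region was the one 449 bases from a start, chr19:45815121-45815614, with 25, 27 and 20 and then 28, 33 and 16. All 4 of these regions overlapped between groups.

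**Figure D5:**
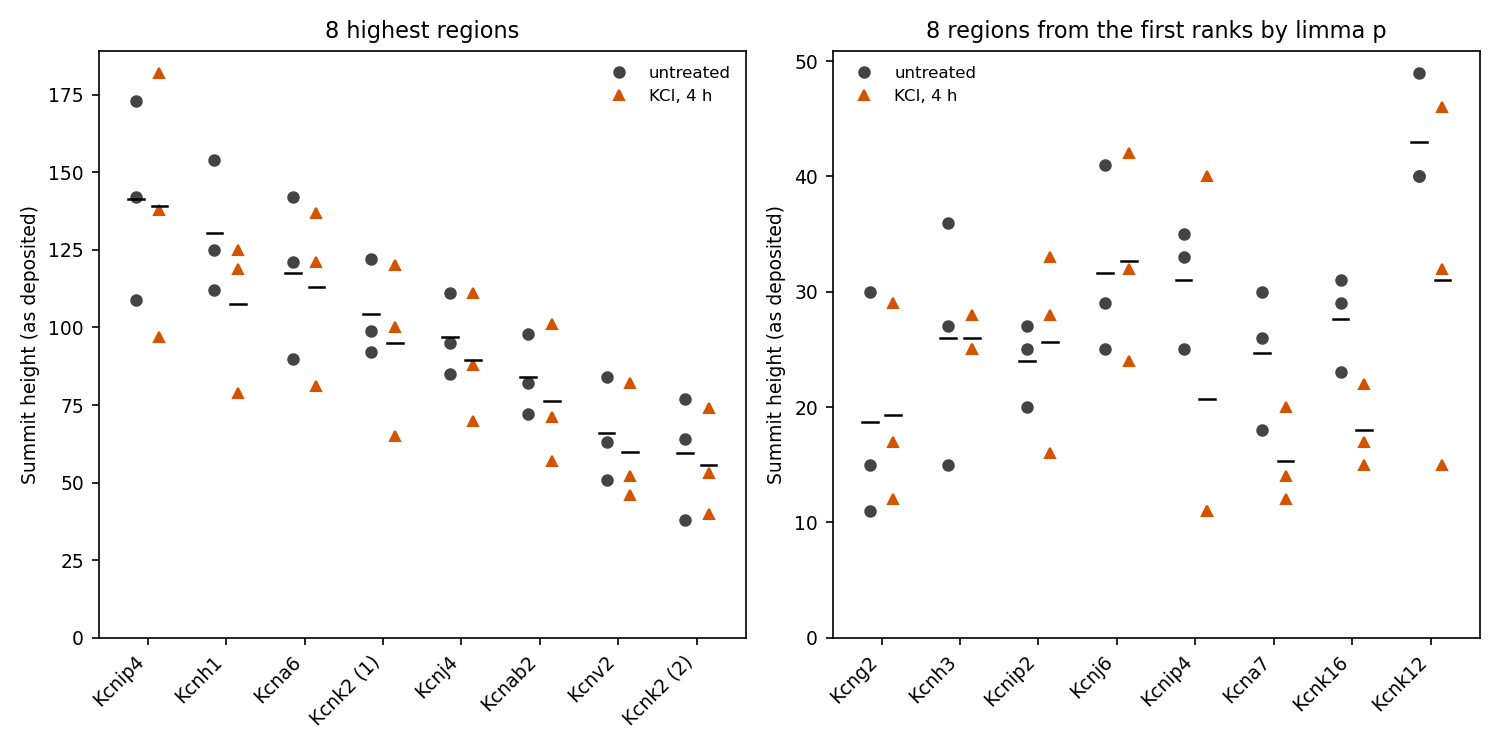
Deposited summit heights in each library (circles untreated, triangles KCl for 4 h, dashes the group means) for the 8 highest regions of the family on the left and 8 from the first ranks by limma p, 4 in each direction, on the right. In the 8 highest regions the groups overlap, and of the 8 on the right Kcnk16 alone has every triangle below every circle.

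Of the 121 regions called in all 6 libraries, 5 had every KCl height below every untreated height (4.13%, against 4.66% of all such regions) and 0 had the reverse (against 0.124%). The 5 lay in Kcnk2, Kcnh6, Kcnk16, Kcnma1 and Kcnh2. The Kcnma1 region (chr14:23756154-23756667) had heights of 29, 40 and 28 in untreated and 26, 21 and 18 in KCl libraries. Once heights were divided by each library's median, 3 regions were lower throughout (2.48%, against 2.83%) and 5 higher throughout (4.13%, against 5.75%). The share was near the background on both scales and in both directions.

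Calls were also compared by presence. In 8 of the 569 regions all 3 untreated and no KCl libraries had an interval (1.41%, against 1.01% of all regions), and the reverse held for 0 (against 0.0367%). They lay in Kcnj16, Kcnh5, Kcnk10, Kcnma1, Kcnh3, Kcnn3, Kcnab2 and Kcnip4, with heights between 10 and 21. The highest of them, in Kcnab2 (chr4:152433337-152433841), had 13, 21 and 18. When each library was cut to the number of intervals of KCl replicate 3, 1 such region was left, of 242 (0.413%, against 0.439% of all). The count was 18 (3.38%, against 2.40% of all) without untreated replicate 1 and 13 (2.43%, against 2.40%) without untreated replicate 2. It was 27 (4.90%, against 3.32%) without untreated replicate 3 and 37 (7.02%, against 5.74%) without KCl replicate 1. With any of these libraries left out, both shares rose. Without KCl replicate 2 the count stayed at 8 (1.44%), while the share of all regions rose to 1.64%. Without KCl replicate 3 it was also 8 (1.41%, against 1.13% of all), and the reverse count was 2 (0.351%, against 0.830% of all).

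The genes of proteins that work with these channels were described as a list of 18, chosen with earlier results of these data known. Regions lay in 15 of them, at 3.08 per 100 kb when pooled, a ratio of 0.445 to all genes, but the median partner gene held 6.10, above the 5.23 of all genes. Limma tested 30 of their regions, of which 15 lay above and 15 below the median region, and called 0. Abcc8 and Abcc9, whose sulfonylurea receptors complete the ATP-sensitive channel with Kcnj11, had 12.9 and 14.5 regions per 100 kb. Cntnap2, which gathers Kcna channels beside nodes of Ranvier, had 38 regions in 2243 kb (1.69 per 100 kb).

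Among the genes for the HCN pacemaker channels, Hcn2 had 4 regions in 21.5 kb, all called in all 6 libraries.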

How the data were processed

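The authors' deposited tracks hold, for each library, called intervals with a summit height, and active regions merged over libraries. Per the submitters' processing notes, BWA, SICER and build mm10 were used, with no versions. Depth is not stated, so heights were used as the authors' deposited signal and not as counts. Of the 133337 active regions, 133311 equalled a merge of the libraries' intervals. Coordinates are 1-based.

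Genes came from RefSeq (GRCm38.p6, the coordinates of mm10). The members and lists were chosen with earlier results of these data known. Named genes were, per class, the 2 with most regions and the densest with at least 3, the 8 highest regions, the 5 lowest p per direction, calls in all libraries of 1 group only, regions near starts, windows over 50 kb without a region, and 13 well-known hippocampal genes. A few paralogues were named after their values were seen, and some genes that the rule names are not reported here.

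Heights were tested with limma 3.58.1 in R 4.3.3 on log2(height + 1), with an intensity trend, over regions called in all 6 libraries with a mean height of at least 18.7 (the 0.25 quantile), and checked on simulated data. Standard errors of relative changes come from the fit centred on library medians. Libraries with the same replicate number deviated together (correlations of 0.113, 0.108 and 0.114), so a fit with the replicate block was also run. Other pairs gave -0.09 to -0.01, but deviations from a group mean cancel within the group, so these values are not independent of the former. Other settings varied the filter, pseudocount, flanks, minimum libraries, minimum height and equal interval numbers.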

Additional observations from a re-analysis of the deposited data

How the results depend on the processing

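Limma called 0 potassium channel regions under every setting run, with the replicate block (0 calls) and with the block and median centring (0 calls, lowest adjusted p 0.980) as without, so the pairing changed no call. The density ratio of the family was 0.784, ran from 0.778 to 0.793 as each library was left out, and was 0.724 with equal numbers of intervals per library. With regions in at least 2 libraries the Kv alpha ratio was 0.675 and the modifier ratio 1.69. With regions in all 6 libraries the ratios were 2.18 for modifiers (10 regions), 0.548 for auxiliary, 1.06 for Kir and 1.48 for K2P genes. Genes with windows of 100 kb or more gave 0.560 in that setting. A summit of at least 15 gave 0.395 for KCa and KNa genes, and flanks of 5 kb gave 1.13 for modifiers. Equal interval numbers gave 0.704 for auxiliary, 0.373 for KCa and KNa and 1.53 for K2P genes, and 0.574 for the long genes. In none of these settings did a class change its side of 1, and the cause of the moves was not tested. Regions in all 3 untreated but no KCl libraries numbered 1 with equal interval numbers and 8 to 37 as libraries were left out, while the share of all regions moved from 0.439% to between 1.13% and 5.74%.

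The relative log2 changes of 3 regions near 0 or with wide errors changed sign as a library was left out: the highest Kcnh1 region ran from -0.11 to 0.05 (0.0502 without KCl replicate 1, 0.0022 without untreated replicate 2), the Kcnh3 region from -0.01 (-0.0068 without untreated replicate 1) to 0.57, and the second Kcnk2 region from -0.04 (-0.0391 without untreated replicate 3) to 0.29. The cause was not tested. Neither depth per library nor the scaling of heights is known here, so a missing interval cannot be read as absent methylation, and no interval or floor could be given.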

Other observations

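Kcn genes on the X chromosome were outside the rule. Kcnd1, an A-type pore subunit (chrX:7823759-7838278), had 1 region, called in 4 libraries. Kcne1l, a small auxiliary subunit (chrX:142304753-142306198), had 2 regions, called in 3 libraries and 1 library.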
